A study of Mus musculus with 5 samples.

Results

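The genes described here are 10 genes of macrophages and other leukocytes, Lyz2, C1qa, C1qb, C1qc, Csf1r, Cd68, Ptprc, Tyrobp, Ctss and Laptm5, out of 19938 genes measured in sorted mouse pancreatic islet cells. They were taken from a given list, each through the probe set that carries its gene symbol alone, and each had 1 such probe set. The study sorted islet cells by flow cytometry into a Flattop-positive fraction (3 arrays) and a Flattop-negative fraction (2 arrays), and its title asks about proliferative and mature β-cells. All donors were untreated C57BL/6 mice of 8 to 12 weeks, heterozygous for Flattop (FVR/+), so both fractions carry the modified allele and no wild-type animals serve as controls. Each array was hybridised with RNA from 1 pool of 4 to 6 mice whose sex had not been determined. The labels name the cells pancreatic islet cells and give no step that selects or removes leukocytes.

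Macrophages are the resident phagocytes of the islet and its most common leukocyte in healthy mice. They depend on signals through the receptor encoded by Csf1r. They take up and digest material in lysosomes, and they secrete the subunits of C1q, the protein that starts the classical complement pathway. The protein CD45, encoded by Ptprc, is carried by nearly all nucleated blood cells.

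Values are log2 signals made by the authors with RMA. An array gives a signal even for a gene that is not expressed, so the floor of each array was taken from its 1027 olfactory receptor (Olfr) genes, a family used chiefly in olfactory neurons. The 95th percentile of these genes was 4.29, 4.44 and 4.45 on Flattop-positive replicates 1 to 3, against 4.75 and 4.86 on Flattop-negative replicates 1 and 2. The floor thus differed between the groups, and the median difference over Olfr genes (Flattop-positive minus Flattop-negative) was -0.27 log2 units. Cfap126, the gene of Flattop, stood at 6.07, 6.07 and 6.24 in the Flattop-positive pools and at 5.52 and 5.44 in the Flattop-negative pools, in the direction of the sort. Across genes the Flattop-negative pair had the lowest correlation of all pairs of arrays (r = 0.846), and the 2 arrays of that group differ in several results below. With the Flattop-positive arrays, Flattop-negative replicate 1 correlated at 0.896 to 0.914 and replicate 2 at 0.915 to 0.937. Replicate 1 exceeded every other array by at least 1 log2 unit for 438 genes and replicate 2 for 268. The insulin gene Ins2 was near the top of the scale on every array, between 12.64 and 13.08 in the Flattop-positive pools and at 12.37 and 13.04 in the Flattop-negative pools.

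Of the 10 genes, 3 (C1qa, Csf1r and Cd68) were above the floor on all 5 arrays, and the other 7 lay near or under it in most pools. Above the 95th percentile of Olfr genes were 6, 3 and 5 of the 10 genes in the Flattop-positive pools, against 4 and 9 on Flattop-negative replicates 1 and 2. Of all genes, 63.1%, 61.6% and 62.6% were above that floor in the Flattop-positive pools, and 57.2% and 59.2% on Flattop-negative replicates 1 and 2. The count depended on the floor. At the 99th percentile of Olfr genes it was 3, 2 and 1 of the 10 genes in the Flattop-positive pools, against 1 and 4 on Flattop-negative replicates 1 and 2. Of all genes, 49.3%, 47.6% and 48.3% passed that stricter floor in the Flattop-positive pools, and 38.9% and 40.1% in the Flattop-negative pools. Lyz2 had by far the greatest distance from the other arrays, and Ptprc was below the floor on every array. The plot of the members by array shows each value with its floor.

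**Figure D1:**
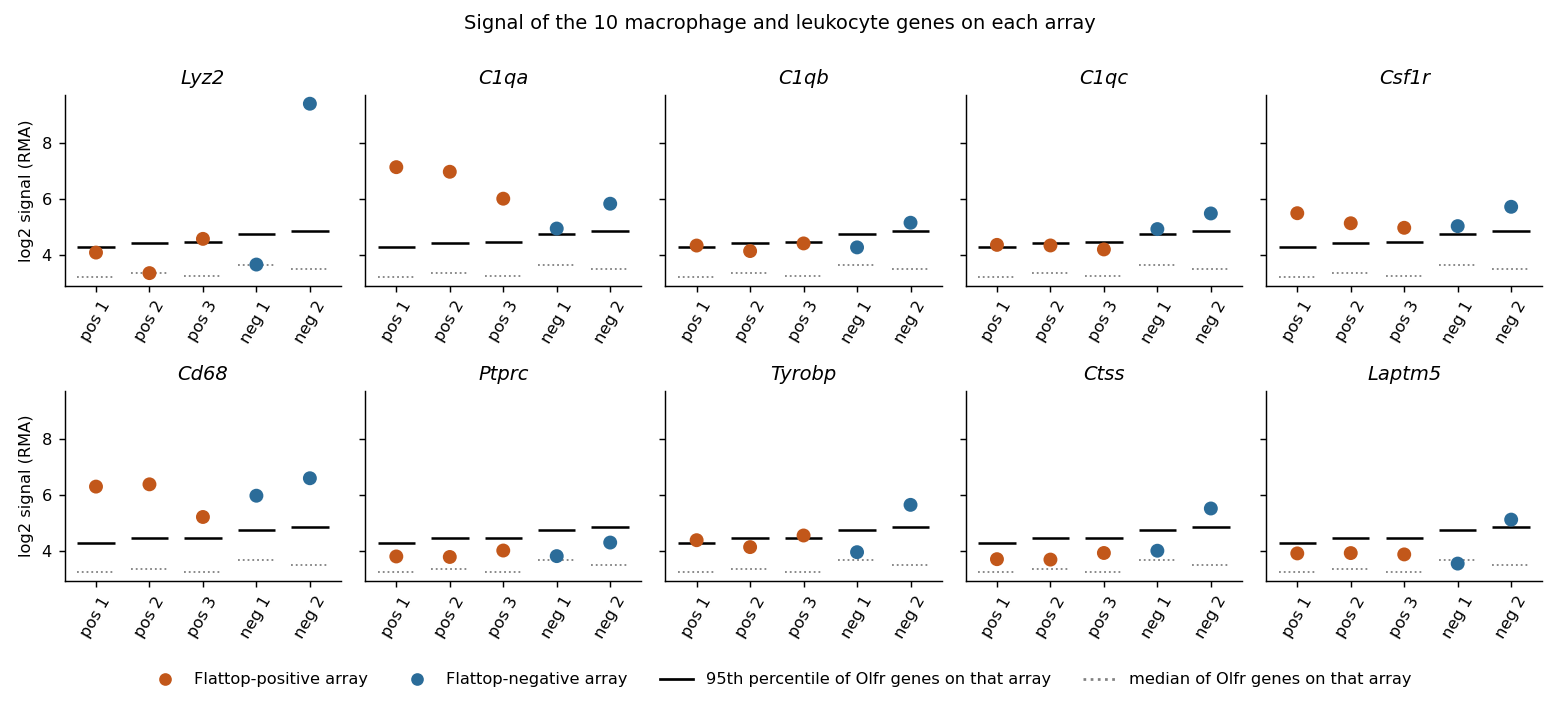
Log2 signal of each of the 10 genes on the 3 Flattop-positive arrays (orange) and the 2 Flattop-negative arrays (blue), with the 95th percentile (black bars) and the median (dotted bars) of the 1027 Olfr genes on the same array. Lyz2 reaches 9.41 on Flattop-negative replicate 2 and at most 4.58 elsewhere, and Ptprc stays under the black bar on all 5 arrays.

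Lyz2 encodes the lysozyme of macrophages and neutrophils, an enzyme that cuts bacterial cell walls. Its signal (probe set 10372648) was 4.09, 3.35 and 4.58 in the Flattop-positive pools, against 3.66 and 9.41 in the Flattop-negative pools. It was therefore at or near the floor on 4 arrays and 4.83 log2 units above the highest of them on Flattop-negative replicate 2. No other of the 19938 genes had so large a margin on that array, and no Olfr gene reached its level there. On Flattop-negative replicate 1, by contrast, 511 of the 1027 Olfr genes were at or above Lyz2. The group means were 4.01 ± 0.62 (SD, n = 3) and 6.54 ± 4.07 (SD, n = 2), and the groups overlapped. The log2 difference of -2.53 ± 1.62 (SE) had an adjusted p of 0.503, and without Flattop-negative replicate 2 it was 0.35. Lyz1, the neighbouring and near-identical lysozyme gene, was at 3.35, 3.34 and 3.73 in the Flattop-positive pools and at 3.81 and 5.32 in the Flattop-negative pools. The probe sets of such close copies may share signal, so the part of each copy is uncertain.

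Ctss encodes cathepsin S, a lysosomal protease that trims the chain occupying class II molecules. Its signal (probe set 10494271) was 3.70, 3.68 and 3.92 in the Flattop-positive pools, against 4.00 and 5.51 in the Flattop-negative pools. The groups did not overlap, although the gene passed the floor only on Flattop-negative replicate 2. Its log2 difference was -0.99 ± 0.45 (SE; adjusted p = 0.402), and -0.23 without that array. Laptm5, a lysosomal membrane protein of haematopoietic cells (probe set 10508663), was at 3.90, 3.92 and 3.87 in the Flattop-positive pools, against 3.54 and 5.11 in the Flattop-negative pools. Flattop-negative replicate 1 was thus the lowest array for Laptm5 and replicate 2 the highest. Its difference of -0.43 ± 0.47 (SE; adjusted p = 0.672) was 0.36 without Flattop-negative replicate 2. Cd68, a lysosomal glycoprotein used to stain macrophages (probe set 10387536), had another pattern. It was above the floor everywhere, at 6.29, 6.37 and 5.21 in the Flattop-positive pools and at 5.97 and 6.59 in the Flattop-negative pools, and the groups overlapped. The difference was -0.32 ± 0.43 (SE; adjusted p = 0.732), and 0.05 without Flattop-positive replicate 3, the lowest array for this gene.

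The 3 chains of C1q, which assemble into 1 protein, did not share a pattern. Their genes lie side by side on chromosome 4, in the order C1qb, C1qc, C1qa among protein-coding genes. C1qa (probe set 10517517) stood at 7.15, 6.98 and 6.02 in the Flattop-positive pools, against 4.95 and 5.84 in the Flattop-negative pools. It was above the floor on all 5 arrays, higher in the Flattop-positive pools without overlap, and the 1 member that was not highest on Flattop-negative replicate 2. Its log2 difference was 1.32 ± 0.45 (SE; adjusted p = 0.314), between 0.88 and 1.77 over all settings tried. C1qc (probe set 10517513) lay the other way, at 4.37, 4.34 and 4.20 in the Flattop-positive pools, against 4.93 and 5.49 in the Flattop-negative pools, again without overlap. It was above the floor on both Flattop-negative arrays and on 1 Flattop-positive array. Its difference of -0.91 ± 0.24 (SE) had an adjusted p of 0.253, the smallest among the 10 genes. C1qb (probe set 10517508) was at 4.34, 4.14 and 4.42 in the Flattop-positive pools and at 4.28 and 5.16 in the Flattop-negative pools, with overlapping groups. Its difference was -0.42 ± 0.31 (SE; adjusted p = 0.550), and it became 0.03 when Flattop-negative replicate 2 was left out.

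Among the surface receptors and their adaptor, no gene separated the groups. Csf1r, the receptor for the growth factors CSF1 and IL-34 (probe set 10456071), was above the floor throughout, at 5.50, 5.14 and 4.98 in the Flattop-positive pools and at 5.04 and 5.73 in the Flattop-negative pools. Its difference was -0.18 ± 0.30 (SE; adjusted p = 0.787), which turned to 0.17 when Flattop-negative replicate 2 was left out and to 0.12 with arrays set to their Olfr medians. Ptprc (probe set 10358224) was at 3.79, 3.78 and 4.01 in the Flattop-positive pools and at 3.81 and 4.29 in the Flattop-negative pools. Even on Flattop-negative replicate 2, where Ptprc was highest, 149 of the 1027 Olfr genes (14.5%) reached its level, so the pan-leukocyte gene was not detectable above the floor in any pool. Its difference was -0.19 ± 0.23 (SE; adjusted p = 0.705), and its sign turned when arrays were normalised again by quantiles (0.10), by cyclic loess (0.08) or to their Olfr medians (0.11). Tyrobp encodes DAP12, an adaptor that passes signals from activating receptors such as TREM2 to the kinase SYK. Its signal (probe set 10551883) was 4.38, 4.13 and 4.54 in the Flattop-positive pools, against 3.95 and 5.64 in the Flattop-negative pools. The Flattop-negative pair again held both the lowest and the highest value. The difference was -0.44 ± 0.51 (SE; adjusted p = 0.691), and it became 0.40 when Flattop-negative replicate 2 was left out.

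Promoter sequences are shown for Lyz2, Ctss and Laptm5, which had margins of at least 1 log2 unit on Flattop-negative replicate 2, and for the neighbours C1qb and C1qc. Entries of the RefSeq promoter table (build GRCm38.p6) were used for 7 of the 10 genes. Whether it holds entries for the other genes is not stated here. Each line gives the 250 bases before the listed start, 5′ to 3′ on the gene's strand, and capitals mark GAGGAA on either strand (TTCCTC on the printed one). GAGGAA is a form of the sequence that PU.1, a transcription factor of myeloid cells, is known to bind. Other forms were not marked.
Lyz2, chr10:117282273-117282522, minus strand: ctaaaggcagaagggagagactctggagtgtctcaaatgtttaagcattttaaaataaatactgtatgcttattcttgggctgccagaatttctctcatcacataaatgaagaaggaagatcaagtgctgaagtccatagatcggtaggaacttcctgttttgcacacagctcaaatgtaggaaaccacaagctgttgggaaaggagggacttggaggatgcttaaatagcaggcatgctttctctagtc
Ctss, chr3:95526536-95526785, plus strand: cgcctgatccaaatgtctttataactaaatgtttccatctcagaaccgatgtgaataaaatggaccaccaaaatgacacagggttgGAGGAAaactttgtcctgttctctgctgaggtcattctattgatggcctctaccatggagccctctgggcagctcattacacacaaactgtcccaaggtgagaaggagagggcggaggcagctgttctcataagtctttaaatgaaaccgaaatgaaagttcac
Laptm5, chr4:130913066-130913315, plus strand: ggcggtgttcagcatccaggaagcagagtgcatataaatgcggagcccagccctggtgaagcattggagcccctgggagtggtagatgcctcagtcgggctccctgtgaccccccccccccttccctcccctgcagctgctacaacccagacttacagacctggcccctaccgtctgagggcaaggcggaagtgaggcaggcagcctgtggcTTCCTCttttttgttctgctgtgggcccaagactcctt
C1qb, chr4:136886201-136886450, minus strand: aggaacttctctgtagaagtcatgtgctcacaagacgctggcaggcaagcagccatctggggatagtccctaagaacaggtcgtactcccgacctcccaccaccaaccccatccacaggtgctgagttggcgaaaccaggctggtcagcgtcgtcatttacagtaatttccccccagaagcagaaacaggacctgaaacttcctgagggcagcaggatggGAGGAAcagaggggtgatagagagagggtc
C1qc, chr4:136892915-136893164, minus strand: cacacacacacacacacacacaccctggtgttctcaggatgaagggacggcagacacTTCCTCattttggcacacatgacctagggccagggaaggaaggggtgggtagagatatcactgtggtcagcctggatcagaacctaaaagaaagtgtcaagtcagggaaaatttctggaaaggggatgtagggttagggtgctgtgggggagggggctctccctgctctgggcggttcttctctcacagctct
The 6 letters GAGGAA were found once each in the windows of Ctss, Laptm5, C1qb and C1qc and in no place in that of Lyz2. In C1qb the match lies 30 bases before the listed start and in Laptm5 38 bases before it. The listed start of Laptm5 is 426 bases past the RefSeq start of the gene, so its window lies within the gene. Of the 32851 windows of this length that were searched, 23.3% hold the same letters on either strand. The longer form GAGGAAGT, which contains them, was found among these genes only in C1qc and in 2.44% of the windows searched. A match is a description of the letters and not a binding site.

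As a group the 10 genes did not separate the sorted fractions. By limma 0 of the 19938 genes (0%) and 0 of the 10 members had an adjusted p under 0.05. The unadjusted p was under 0.05 for 2760 genes (13.8%) and for 2 of the members, C1qc lower and C1qa higher in the Flattop-positive pools. The Flattop-positive arrays lay wholly below the Flattop-negative arrays for 2 members, C1qc and Ctss, while 21.0% of all genes and 42.1% of Olfr genes did so. They lay wholly above for 1 member, C1qa, against 13.7% of all genes. These shares are near those of all genes, so they say nothing particular about the members. The median log2 difference of the 10 genes was -0.42, beside -0.10 over all genes and -0.27 over Olfr genes, and 9 of the 10 differences were below 0 (8 after quantile normalisation or cyclic loess, 7 with arrays set to their Olfr medians).

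The negative sign of most members rested on 1 array. When Flattop-negative replicate 2 was left out, 6 of the 10 differences turned sign, 7 were above 0 and their median became 0.11. In that comparison 2 members were lower without overlap, beside 40.0% of all genes. When Flattop-negative replicate 1 was left out instead, the median became -1.02 and 9 members were lower without overlap, as were 40.9% of all genes in that comparison of 3 arrays against 1. In the fit without Flattop-negative replicate 2, 1.81% of all genes were called higher in the Flattop-positive pools and 0.371% were called lower. None of the members was called (0 of 10; smallest adjusted p = 0.122). In that fit the lone Flattop-negative array is assumed to vary like the other group. The plot of differences with and without Flattop-negative replicate 2 shows that C1qa, C1qc, Ctss and Cd68 kept their side and Lyz2 did not. Without that array the difference was -0.23 for Ctss and -0.009 for Cd68. In pools of cells, fewer cells of a type and less RNA per cell cannot be told apart.

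**Figure D2:**
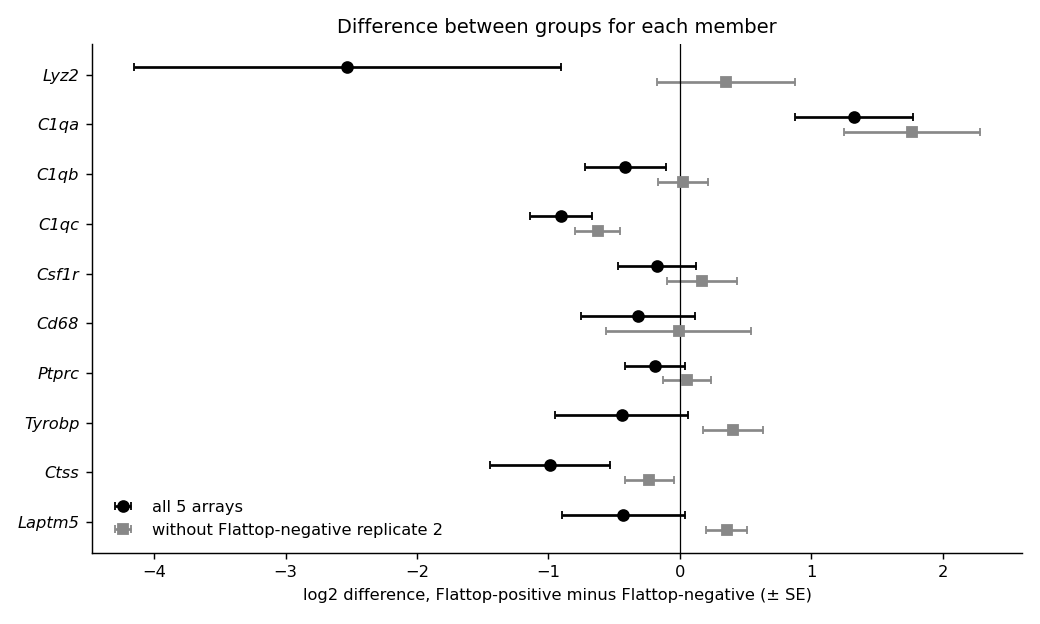
Log2 difference, Flattop-positive minus Flattop-negative, with its standard error for each gene, from all 5 arrays (black circles) and without Flattop-negative replicate 2 (grey squares). The Lyz2 difference is -2.53 with all arrays and 0.35 without that array, whereas that of C1qa is 1.32 and 1.77.

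Within the Flattop-negative group the direction was the same for every member. All 10 were higher on replicate 2 than on replicate 1, by 0.49 log2 units for Ptprc up to 5.75 for Lyz2, while 54.5% of all genes were. Of the 10 genes, 9 had their highest value of all arrays on Flattop-negative replicate 2, as did 31.3% of all genes. A peak there was not particular to the members. It was seen for 12 of 14 endothelial markers, 12 of 14 stellate and mesenchymal markers and 5 of 6 glial markers. It was also seen for 7 of 8 α, δ and PP cell markers and 20 of 38 other macrophage genes. Of β-cell markers 0 of 13 peaked on that array, and of lysosomal genes 4 of 17. That array exceeded every other by at least 1 log2 unit for 4 members, Lyz2, Ctss (1.51), Laptm5 (1.20) and Tyrobp (1.10), and for 1.34% of all genes. It did so for 0 of 14 endothelial, 2 of 14 stellate and mesenchymal and 0 of 6 glial markers. The same held for 1 of 8 α, δ and PP cell markers and 3 of 38 other macrophage genes. Above the floor on no array were 7 of the endothelial, 6 of the stellate and mesenchymal and 4 of the glial markers. Ranked by this margin among 19938 genes, Ctss was at place 62, Laptm5 at 143 and Tyrobp at 199. C1qb had a margin of 0.74 and C1qc of 0.56, and Ptprc, Csf1r and Cd68 had margins of 0.29, 0.23 and 0.22. On other scalings 8 or 9 members were highest on this array, and 2 or 3 had a margin of at least 1. The Lyz2 margin was the first of all genes on each scaling, between 4.59 and 5.02. The histogram of margins shows where each member stands among all genes.

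**Figure D3:**
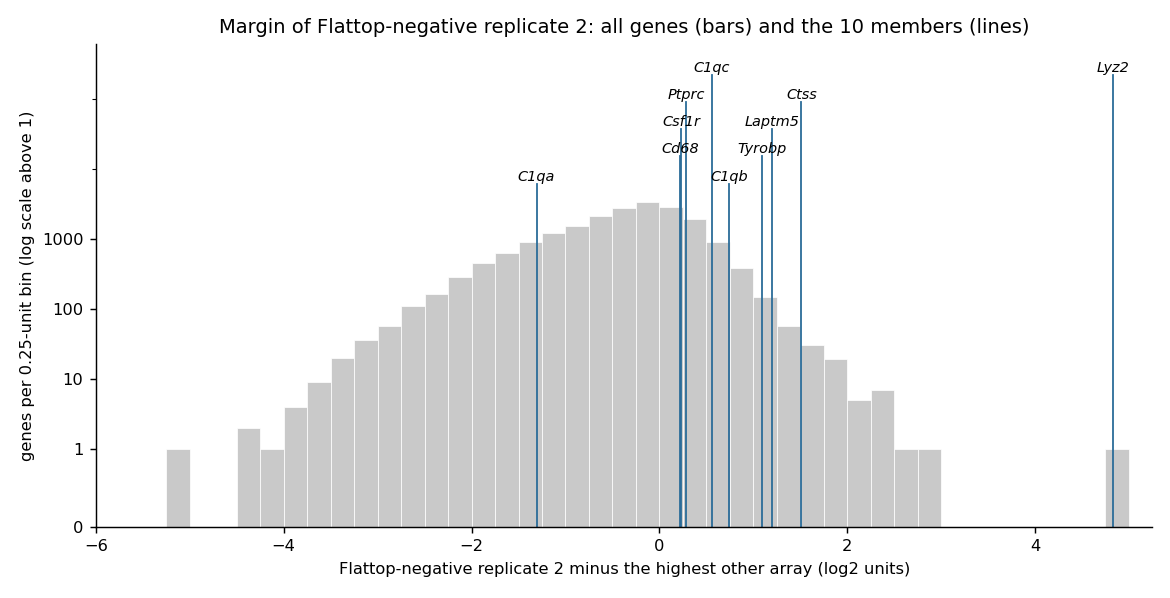
Number of genes in bins of 0.25 log2 units, on a log scale above 1, by the signal on Flattop-negative replicate 2 minus the highest of the other 4 arrays, for all 19938 genes, with a line for each of the 10 members. C1qa lies at -1.31, 8 members lie between 0.22 and 1.51, and Lyz2 at 4.83 is apart from every other gene.

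The members also differed from one another in how closely they followed the shared profile. The mean profile of the 10 genes, each centred on its own mean over the 5 arrays, was -0.09, -0.26 and -0.27 in the Flattop-positive pools and -0.43 and 1.04 in the Flattop-negative pools. Laptm5 lay nearest to it, with a root mean square distance of 0.08 log2 units, followed by Tyrobp (0.16) and C1qb (0.21). Lyz2 (1.72) and C1qa (0.98) lay farthest. Among other genes with a range of at least 2 log2 units over the arrays, the nearest profiles were those of Nyap1, Ston2, Agpat4, Rnf39, Tox2, Pcp4l1, Clcn6, Zfp704, Acta1 and Zfp703, at distances of 0.22 to 0.29. They were chosen for nearness to a profile that peaks on Flattop-negative replicate 2, so their own peak there is part of the choice. With 5 arrays, likeness of profile describes these pools and no more.

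**Figure D4:**
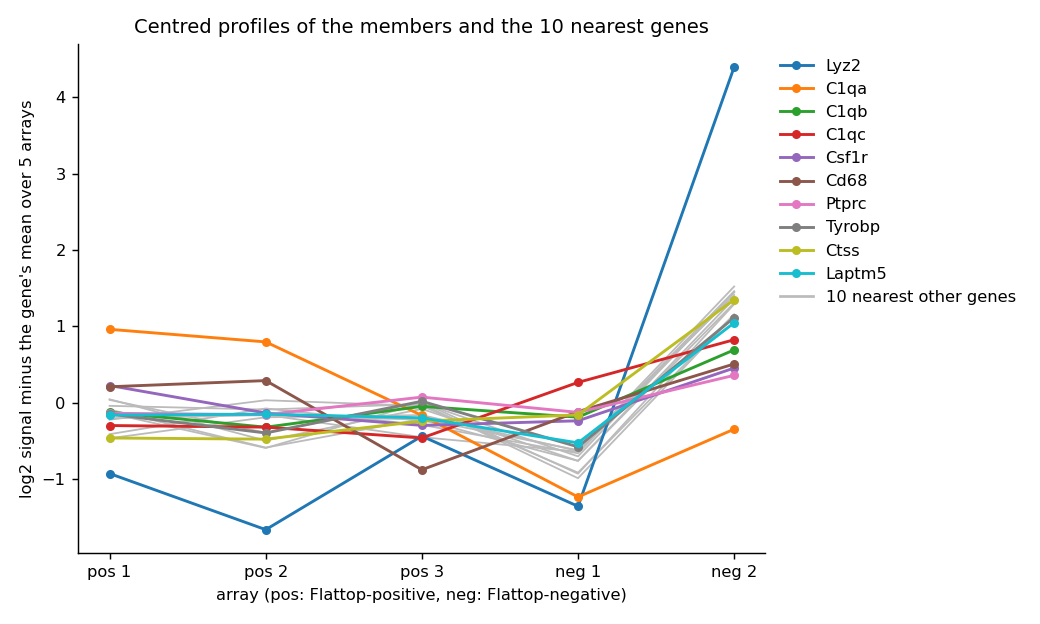
Signal of each member minus its mean over the 5 arrays, in log2 units, by array (coloured lines), with the 10 other genes whose profiles were nearest to the members' mean profile (grey lines). Lyz2 ends highest on Flattop-negative replicate 2, and C1qa is highest on the first 2 Flattop-positive arrays.

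The wider set of macrophage genes was mostly at the floor. Of 38 other macrophage and myeloid genes measured, 10, 10 and 12 were above it in the Flattop-positive pools, against 10 and 15 in the Flattop-negative pools, and 22 were above it on no array. Among these 22 is Adgre1, which encodes the F4/80 antigen that defines mouse macrophages, at 3.37, 3.42 and 3.39 in the Flattop-positive pools and 3.55 and 3.40 in the Flattop-negative pools. Adgre1, chosen outside the naming rule, was thus not highest on the array where Lyz2 was. Apoe, an apolipoprotein secreted by macrophages and other cells, did follow Lyz2, at 6.34, 6.23 and 6.68 in the Flattop-positive pools, against 6.37 and 8.91 in the Flattop-negative pools. Of the 38 genes, 3 had a margin of at least 1 log2 unit on Flattop-negative replicate 2: Apoe (2.23), Cyba (1.33), a subunit of the phagocyte oxidase, and Pld4 (1.14), the last 2 named after their values were seen. Their median difference between the groups was -0.34, and 0 passed the adjusted threshold. At an unadjusted p under 0.05, 6 of the 38 lay lower and 2 higher in the Flattop-positive pools, beside 5.37% of all genes lower and 8.48% higher. Of the 1027 Olfr genes, which mark the floor, 97 lay lower and 0 higher by the same measure. Spi1, the gene of PU.1, was at 4.08, 4.00 and 4.24 in the Flattop-positive pools and at 4.99 and 4.86 in the Flattop-negative pools, under the floor in the Flattop-positive pools and at about the floor in the Flattop-negative ones. Mpeg1, which encodes a pore-forming protein of macrophages (-0.81 ± 0.18, SE; adjusted p = 0.228) and the chemokine receptor Cx3cr1 (-0.76 ± 0.19, SE; adjusted p = 0.249) likewise lay lower in the Flattop-positive pools, Mpeg1 under the floor on every array and Cx3cr1 above it on every array. Sirpa (0.94, adjusted p = 0.296) and Ifi30 (1.08, adjusted p = 0.253) lay higher in the Flattop-positive pools.

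Genes of the pathways around the members were described in the same way. Of 13 genes of the Tyrobp pathway, 4, 5 and 5 were above the floor in the Flattop-positive pools and 7 and 5 in the Flattop-negative pools. Hcst, the adaptor gene next to Tyrobp, was at 5.89, 5.64 and 5.94 in the Flattop-positive pools and at 5.95 and 6.44 in the Flattop-negative pools. The receptor gene Trem2 was at 5.27, 5.46 and 5.26 in the Flattop-positive pools and at 5.57 and 5.89 in the Flattop-negative pools. Hcst and Trem2 were thus highest on Flattop-negative replicate 2, but only 5 of the 13 genes were. Plcg2 (5.33 and 5.15 on Flattop-negative replicates 1 and 2) and Fgr (4.89 and 4.38) were highest on replicate 1. Of 11 genes around the Csf1 receptor, 6 or 7 were above the floor on every array. The ligand gene Csf1 was at 7.64, 7.44 and 6.96 in the Flattop-positive pools and at 7.75 and 7.16 in the Flattop-negative pools, so it was not highest on Flattop-negative replicate 2. Of the 11 genes, 4 were highest there, among them Csf2ra. Its signal was 7.18, 6.88 and 7.76 in the Flattop-positive pools, against 7.10 and 8.23 in the Flattop-negative pools. Complement genes other than C1q (10) had 4 above the floor on each array, led by the inhibitor gene Serping1 at 8.46 to 8.88 in the Flattop-positive pools and 8.97 and 9.49 in the Flattop-negative pools. Broadly used lysosomal genes (17) stood well over the floor, 15 of them on every array, with a median difference of 0.61. Psap (1.03 ± 0.27, SE, adjusted p = 0.253) and Hexa (1.86 ± 0.59, SE, adjusted p = 0.297) lay higher in the Flattop-positive pools. With all 5 arrays the differences of Ctss and Laptm5 had the opposite sign. Without Flattop-negative replicate 2 that of Ctss was -0.23 and that of Laptm5 was 0.36. Class II presentation genes (6) had 3 above the floor on each array except Flattop-negative replicate 1 with 1, and all 6 were highest on Flattop-negative replicate 2, by at most 1 log2 unit. H2-Eb1 stood at 5.30, 4.87 and 5.83 in the Flattop-positive pools and at 5.27 and 6.29 in the Flattop-negative pools.

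Secreted signals of macrophages (19 genes) had 7, 6 and 8 members above the floor in the Flattop-positive pools and 5 and 11 in the Flattop-negative pools. The chemokine genes Ccl3, Ccl4, Ccl7 and Ccl9 exceeded every other array on Flattop-negative replicate 2 by 1.97, 1.04, 1.53 and 1.11 log2 units. Cxcl2, another chemokine gene, was at 3.27, 3.20 and 6.25 in the Flattop-positive pools and at 3.52 and 6.41 in the Flattop-negative pools, high on 1 array of each group. Il6 was at 2.62, 3.04 and 6.48 in the Flattop-positive pools and at 3.29 and 3.42 in the Flattop-negative pools, and so did not share the Lyz2 pattern. Pan-leukocyte genes (17) had 4, 3 and 4 above the floor in the Flattop-positive pools and 2 and 6 in the Flattop-negative pools. Lcp1, an actin-bundling protein of leukocytes, was at 5.24, 4.13 and 6.94 in the Flattop-positive pools and at 5.07 and 7.76 in the Flattop-negative pools, with Flattop-positive replicate 3 second to Flattop-negative replicate 2. Runx1, a transcription factor of blood cells, had the same order, at 4.10, 3.82 and 6.63 in the Flattop-positive pools and at 4.38 and 7.42 in the Flattop-negative pools. Ccl3, Ccl7 and Ccl9 were named after their values were seen.

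Markers of other leukocytes differed by type in how many passed the floor. T cell markers (11 genes) had 1, 2 and 3 above the floor in the Flattop-positive pools and 0 and 1 in the Flattop-negative pools. B cell markers (9) had 3, 5 and 4 in the Flattop-positive pools and 3 and 2 in the Flattop-negative pools, so on Flattop-positive replicate 2 the B cell share was above that of the 10 members (3 of 10). NK cell markers (9) had 1 above the floor on each array. Neutrophils also express Lyz2, and their markers (12) had 3, 3 and 1 above the floor in the Flattop-positive pools and 1 and 1 in the Flattop-negative pools. Mast cell markers (7) had at most 1 above the floor on any array. Dendritic cell markers (10) had 3, 2 and 3 in the Flattop-positive pools and 2 and 5 in the Flattop-negative pools, with Itgax 1.20 log2 units above every other array on Flattop-negative replicate 2. The heat map of lists shows these counts side by side.

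Some markers of non-leukocyte types were also highest on Flattop-negative replicate 2, and others were not. Stellate and mesenchymal markers (14) had 5, 5 and 6 above the floor in the Flattop-positive pools and 4 and 8 in the Flattop-negative pools. Their summed linear signal was 264 to 348 in the Flattop-positive pools and 334 and 861 in the Flattop-negative pools, beside 266 to 386 in the Flattop-positive pools and 246 and 1119 in the Flattop-negative pools for the 10 members. Without Lyz2, the sum over the other 9 members was 242 to 369 in the Flattop-positive pools and 233 and 437 in the Flattop-negative pools. Vim, an intermediate filament gene of mesenchymal cells and macrophages, was at 5.02, 4.64 and 5.64 in the Flattop-positive pools and at 5.02 and 8.59 in the Flattop-negative pools. Without Vim, the stellate and mesenchymal sum was 231 to 298 in the Flattop-positive pools and 301 and 475 in the Flattop-negative pools. Acinar markers (11) had 3, 6 and 5 above the floor in the Flattop-positive pools and 4 and 6 in the Flattop-negative pools. Their summed linear signal was 538, 439 and 306 in the Flattop-positive pools and 396 and 502 in the Flattop-negative pools, so it was not highest on Flattop-negative replicate 2. Bhlha15, a transcription factor of secretory cells and the brightest gene of that list, was at 8.50, 7.83 and 6.66 in the Flattop-positive pools and at 7.17 and 5.62 in the Flattop-negative pools, lowest on Flattop-negative replicate 2. Ctrb1, a chymotrypsinogen gene, was at 3.83, 4.06 and 4.51 in the Flattop-positive pools and at 3.83 and 6.86 in the Flattop-negative pools. The carboxypeptidase gene Cpa1 was highest on the same array as Ctrb1, and the elastase gene Cela3b was highest on Flattop-negative replicate 1. Without Bhlha15, the acinar sum was 177 to 212 in the Flattop-positive pools and 253 and 452 in the Flattop-negative pools. Endothelial markers (14) had 4, 3 and 2 in the Flattop-positive pools and 1 and 5 in the Flattop-negative pools, and duct markers (7) 6, 6 and 5 in the Flattop-positive pools and 4 and 6 in the Flattop-negative pools. Glial markers (6) had 2 above the floor on every array except Flattop-negative replicate 1 with 1. Both red cell genes measured were above the floor on all arrays. All 13 β-cell markers were above it on every array except Flattop-negative replicate 1 with 12, as were 7 or 8 of the 8 α, δ and PP cell markers. The part of these cell types in the levels of the 10 genes was not tested.

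**Figure D5:**
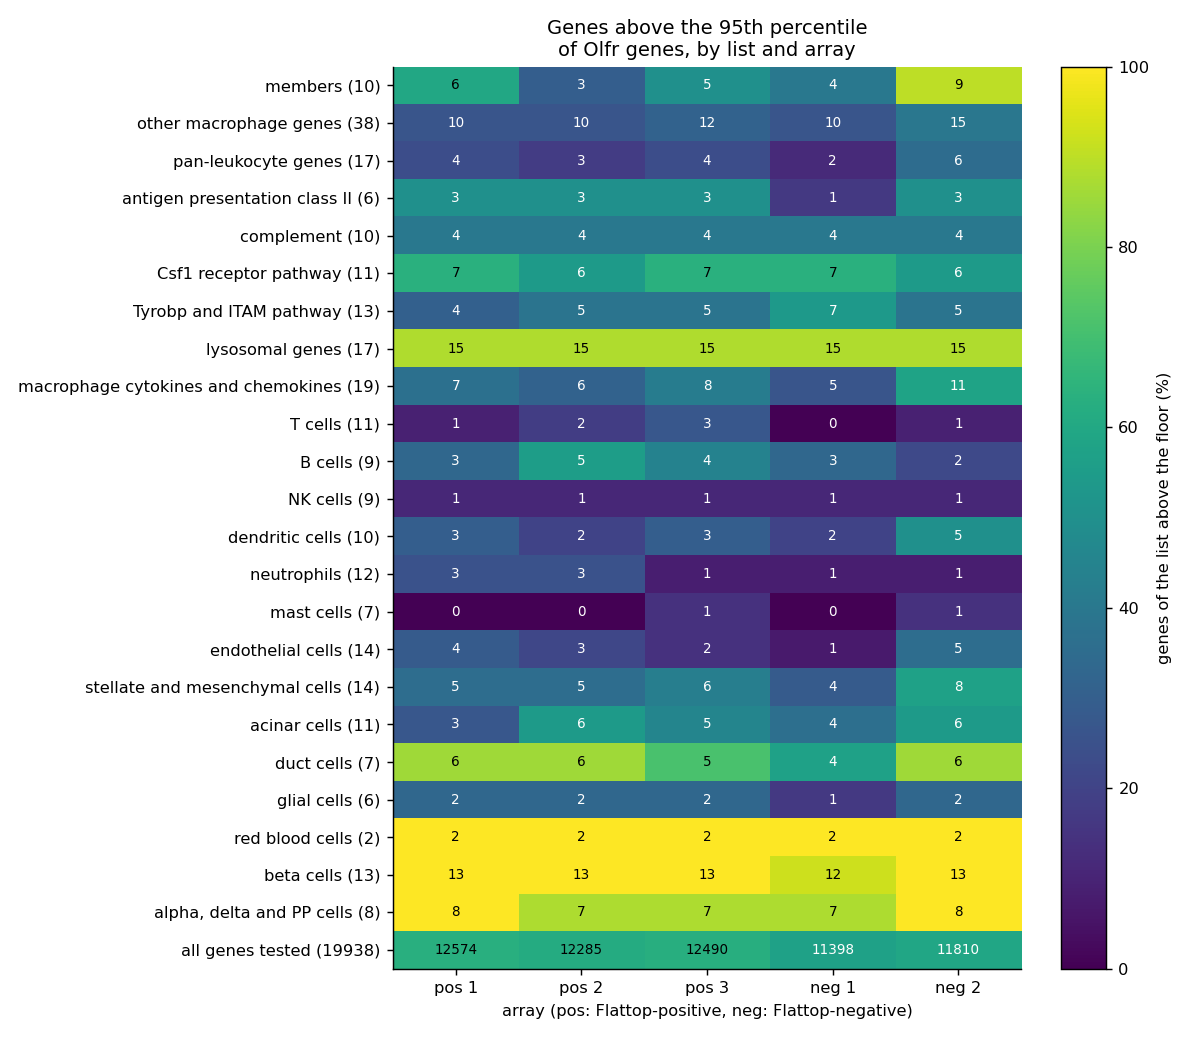
Number of genes of each list above the 95th percentile of Olfr genes on each array, with the percentage of the list as colour. The 10 members number 6, 3 and 5 in the Flattop-positive pools and 4 and 9 in the Flattop-negative pools. T cell and NK cell markers number at most 3 on any array. B cell markers (9) reach 5 on Flattop-positive replicate 2, and dendritic cell markers (10) reach 5 on Flattop-negative replicate 2.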

How the data were processed

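RNA of 5 pools of sorted islet cells was amplified with Ovation PicoSL reagents, labelled with biotin and hybridised to 1 array each, per the labels' protocols. The authors deposited a log2 signal for each probe set. Per the submitters' processing notes these came from RMA, run in Expression Console 1.3.0.187 of Affymetrix, with a genome build not given in the sources used here. RMA corrects background, sets arrays to a common distribution and summarises probes, yet the medians of the deposited arrays ran from 4.74 to 4.98. A gene near the floor can have a compressed difference. Of 35556 probe sets, 21789 carried 1 gene symbol, 1621 several and 12146 no listed gene; the brightest per gene left 19938 genes. Groups were compared with limma 3.58.1 in R 4.3.3, with group as the only term and Benjamini-Hochberg adjustment over all genes (threshold 0.05), two-sided; the model was tested on simulated data. With 3 and 2 arrays, the smallest p of an exact two-sided permutation test is 0.2. The number of arrays limits the precision, and p-values measure the spread between pools. Labels give no batch.

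The members and all 23 gene lists (274 of 305 entries measured) were chosen with earlier results of these data known. Genes named beside the members were drawn by a rule, and not every gene that it selects is named. Per list, the rule took the 3 with the highest signal among those over the floor on at least 1 array. It also took, per list, up to 3 with an unadjusted p under 0.05. Added to these were the 10 nearest profiles and Cfap126, Lyz1, Ins2 and Gcg. Genes outside this rule are marked where named. Alternatives were each array left out, other scalings, probe set rules, variance models, floors and the replicate number as a block; scaling to Olfr medians was added after the data had been seen. Promoters came from RefSeq (GRCm38.p6).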

Additional observations from a re-analysis of the deposited data

How the results depend on the processing

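The count of genes called by limma was 0 in every setting except without Flattop-negative replicate 2 (leaving out arrays in turn gave 0 to 434); at an unadjusted p under 0.05 it ran from 1198 to 5390, against 2760. The labels do not say whether same-numbered pools share mice or a sort day. Deviations of same-numbered arrays from their group means correlated at 0.18 and -0.14. With 2 Flattop-negative arrays these deviations mirror each other, so the correlations cannot decide whether the numbers pair the pools. With the replicate number as a block, Flattop-positive replicate 3 adds nothing to the difference, 0 genes were called, the members' median was -0.45 and Cd68 turned to 0.054. The median over members was -1.02 to 0.11 with arrays left out and -0.12 to -0.35 on other scalings. Members lower without overlap numbered 2 to 9 with arrays left out (9 without Flattop-negative replicate 1, beside 40.9% of all genes), and 1 with dim genes left out (7 members tested), after repeated quantile normalisation, after cyclic loess and with arrays set to their Olfr medians. The members passed the floor 27 times of 50, and 11 times with the 99th percentile of Olfr genes. With arrays left out, differences ran from -5.41 to 0.35 for Lyz2, -1.29 to 0.40 for Tyrobp, -1.22 to 0.36 for Laptm5, -0.86 to 0.0257 for C1qb, -0.52 to 0.17 for Csf1r, -0.63 to 0.054 for Cd68 and -0.43 to 0.0527 for Ptprc. Ptprc was 0.10 after quantile normalisation, 0.0846 after cyclic loess and 0.11 with Olfr medians, where Csf1r was 0.12 and the median over all genes 0.20, against -0.10 as deposited. The causes were not tested. Genes near the floor have differences of uncertain size.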

Other observations

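Besides Lyz2 and Vim, the genes with the greatest margin on Flattop-negative replicate 2 were Mest, Psca, Nptx2, Ctrb1, Adm, Efr3b, Mamld1, Pdk4 and Apoe, with margins of 2.23 to 2.57 log2 units. They were named after their values were seen. Mest, an imprinted gene, was at 4.23, 5.68 and 6.65 in the Flattop-positive pools and at 4.55 and 9.22 in the Flattop-negative pools. Pdk4, a kinase that restrains pyruvate dehydrogenase, was at 4.04, 4.89 and 5.47 in the Flattop-positive pools and at 5.41 and 7.80 in the Flattop-negative pools. A margin over 3 log2 units on any array occurred for Lyz2 on Flattop-negative replicate 2 and for 1 gene, Il6, on Flattop-positive replicate 3. The hormone genes Sst and Ppy set the Flattop-negative pair apart through a low replicate 1, at 8.08 and 8.98, against 13.19 and 13.63 on replicate 2. In the Flattop-positive pools Sst was at 12.3, 12.3 and 12.9 and Ppy at 12.4, 12.8 and 13.3. Their margins on Flattop-negative replicate 2 were thus only 0.265 and 0.289.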
